A study of Mus musculus with 2 samples.

Results

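Heat shock proteins were described here through 10 genes chosen by name, *Hspa1a*, *Hspa1b*, *Dnajb1*, *Hsph1*, *Hspa8*, *Hsp90aa1*, *Hsp90ab1*, *Hspa5*, *Hspd1* and *Hspe1*, which are 10 of the 32291 genes in the table. All 10 had UMIs in each of the 11 annotated cell types of both libraries. Heat shock proteins are chaperones that bind unfolded proteins and help them to fold, assemble or be degraded. Most mRNAs of the cytosolic members can be induced by the transcription factor HSF1 when unfolded proteins accumulate, whereas the chaperones of the endoplasmic reticulum (ER) answer to the unfolded protein response. In the gut, these chaperones are made by the epithelium as well as by secretory cells such as plasma cells and mast cells.

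The data come from colitis-associated colon cancers (CACs) of mice, in which tumors are initiated by the mutagen azoxymethane (AOM) and promoted by dextran sodium sulfate (DSS) in the drinking water. Mice of 6 to 10 weeks of age received 10 mg/kg AOM ahead of the first and second of 3 DSS periods (2.5% DSS in the first and second and 2% in the third, each lasting 5 days) and were sacrificed on day 110. Both genotypes carry the conditional allele of the microRNA gene *Mir34a*. In *Mir34a* F/F mice it is intact, and in *Mir34a* ΔMye mice (labelled Mir34a_Mye_KO) LysM-Cre deletes it in macrophages, monocytes and neutrophils. By design the deletion is not directed at epithelial cells and lymphocytes, which was not tested here. For each genotype, 6 to 8 tumors from 3 female mice were pooled into 1 library. Cells were loaded with CellPlex labels, but an assignment of cells to mice was not used here. Therefore no test between the genotypes was made, and cells were not treated as replicates of a genotype. All intervals are 95% intervals. Those of levels and ratios cover counting error only, and those of shares of cells are binomial over the cells of a library. None covers differences between mice. The tumors were dissociated on a heated instrument before capture, and mRNA present in the tumor and mRNA gained during dissociation cannot be told apart.

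The libraries held 20312 and 18571 cells, with medians of 4787 and 7716 UMIs (captured mRNA molecules) per cell, and shared 96 cell barcodes. The library labelled ΔMye was deeper in 11 of 11 cell types, by 1.11 to 5.69 times, and had a higher median mitochondrial share in 11 of 11. Each marker list was highest in its own cell type in both libraries and no marker was at 0 there, but some types also held the markers of another. The erythroid cells held the epithelial markers at 52.7 and 43.3 UMIs per 10000, compared with 83.7 and 58.3 in epithelial cells. Mast cells held the basophil markers at 17.7 and 21.4, compared with 31.4 and 29.2 in basophils, and basophils the neutrophil markers at 460 and 396, compared with 1586 and 1038 in neutrophils. The part of other cells' mRNA in the levels below was not tested. As for the targeted gene, the macrophages yielded 133 UMIs of the *Mir34a* primary transcript under the label F/F (111 to 158, exact Poisson) and 462 under the label ΔMye (421 to 506). Per 10000 UMIs the level under the label ΔMye was 0.111 compared with 0.0723, a log2 ratio of 0.62 (0.22 to 1.01). This is not the direction of a deletion, although whether the feature covers the deleted part is not given in the sources used here, so every direction below rests on the labels.

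The sequences at the start sites of these genes are shown first, because the gene pairs that share an upstream stretch are taken up again where detection in the same cells is described. The sequences are RefSeq promoter windows (GRCm38.p6, 250 bases before to 50 bases after a start site), in which 7 of the 10 genes were present, and *Hspa8*, *Hsp90aa1* and *Hsp90ab1* were not. *Hspa1a* (chr17:34969190-34972156, minus strand, mm10) and *Hspa1b* (chr17:34956436-34959238, minus strand) encode the inducible cytosolic Hsp70. They lie beside each other, and 296 of the 300 bases of their windows were identical (98.7%). The stretch from base -150 to base -21 before the start lies upstream of both genes and is the same in both (130 of 130 bases). It lies at chr17:34972177-34972306 for *Hspa1a* and at chr17:34959259-34959388 for *Hspa1b*. The capitals mark a pair of inverted heat shock units. Pairs were searched in both arrangements, GAANNTTC or TTCNNGAA, and 1 or the other was found in 15.1% of 32851 windows:
Hspa1a and Hspa1b: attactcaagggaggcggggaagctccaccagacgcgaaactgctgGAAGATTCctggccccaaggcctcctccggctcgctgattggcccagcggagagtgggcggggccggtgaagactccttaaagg

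*Hspd1* (chr1:55077835-55088243, minus strand) encodes Hsp60 and *Hspe1* (chr1:55088132-55091307, plus strand) its lid Hsp10, which together form the chaperonin of mitochondria. They are transcribed away from each other, from RefSeq start sites on either side of a shared element. A full heat shock element was searched as 3 inverted units (GAANNTTCNNGAA or TTCNNGAANNTTC, both strands), of which the shared stretch at chr1:55088053-55088082 held 2 overlapping matches. A further RefSeq window of *Hspd1*, at chr1:55088194-55088493, held no match. The shared stretch is exonic in a longer annotated transcript of *Hspd1*, and the stretch of *Hsph1*, the nucleotide exchange factor Hsp110 (chr5:149614287-149636376, minus strand), at chr5:149636280-149636309 is exonic in *Hsph1*. Below, the same bases of chromosome 1 are read on the strand of each gene, and capitals mark the matches:
Hspe1: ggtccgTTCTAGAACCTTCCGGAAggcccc
Hspd1: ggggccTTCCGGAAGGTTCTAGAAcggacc
Hsph1: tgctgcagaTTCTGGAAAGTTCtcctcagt

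Only these 3 of the 7 genes with a window held the 3-unit element, which was found in 0.603% of all windows. *Hspa5* (chr2:34771970-34777547, plus strand) encodes BiP, the Hsp70 of the ER. Its window was the only one of the 7 with an ER stress element (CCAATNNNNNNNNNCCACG, both strands), here at chr2:34772020-34772049 and exonic in a longer annotated transcript. This element was found in 0.119% of all windows and in 6 of 16 other genes of ER chaperones and the unfolded protein response with a window. A match says only that these letters are present:
Hspa5: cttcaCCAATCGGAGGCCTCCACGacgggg

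The other genes are *Dnajb1* (chr8:83608193-83612653, plus strand), an inducible Hsp40 that delivers substrates to Hsp70, *Hspa8* (chr9:40800984-40810087, plus strand), the constitutive Hsp70, *Hsp90aa1* (chr12:110690605-110702728, minus strand), the inducible cytosolic Hsp90, and *Hsp90ab1* (chr17:45567775-45573271, minus strand), its constitutive counterpart. Reads of *Hspa1a* and *Hspa1b* could be confused only over part of their length. Of all 90-base words of the *Hspa1a* and *Hspa1b* transcripts, 49.3% and 52.3% were shared with the other gene, but none of the 411 words in the last 500 bases, from which 3′ libraries mostly read.

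To see in which cells of CACs these mRNAs were found, the UMIs of each gene were scaled to 10000 UMIs in every cell and averaged over the cells of a type. Levels are compared between cell types for 1 gene at a time and not between genes, and the order of cell types is that of the mean of both libraries. Fewer molecules captured and less mRNA per cell cannot be told apart on this scale.

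Among the inducible members, *Hspa1a* had means of 0.896 and 0.815 per 10000 in epithelial cells of the libraries labelled F/F and ΔMye, 2.09 and 2.56 in macrophages, 1.65 and 1.79 in T cells and 2.45 and 2.71 in mast cells. Epithelial cells were thus below these 3 immune cell types in both libraries, with no overlap, but their range overlapped that of neutrophils, at 0.861 and 0.830. *Hspa1a* was highest in fibroblasts in the mean of both libraries, at 3.91 and 2.29, although mast cells and macrophages were above them in the library labelled ΔMye. It was lowest in basophils, at 0.598 and 0.724. These values rest on 57 and 60 fibroblasts and 48 and 40 basophils. Over the 11 cell types in this order, the range over both libraries overlapped that of the next cell type for 6 of 10 neighbours.

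*Hspa1b* had means of 1.24 and 0.960 in epithelial cells, 2.52 and 2.36 in macrophages, 2.78 and 2.41 in T cells and 4.51 and 4.47 in mast cells. In the mean of both libraries mast cells had the highest level and erythroid cells, at 1.14 and 0.297, the lowest, a ratio of 6.27-fold. In the library labelled F/F, however, fibroblasts were highest, at 6.11 (2.51 in the other library), and neutrophils (0.907) and basophils (0.911) were below the erythroid cells. The 0.297 rests on 2 UMIs in 30 erythroid cells. Only 1 of 10 neighbours in the order was separate over the libraries.

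*Dnajb1* differed from the inducible Hsp70 in that epithelial cells had more of it than macrophages, with 2.48 and 1.96 compared with 1.20 and 1.10. It was highest in mast cells, at 3.97 and 4.68, a range that did not overlap that of any other cell type, and lowest in neutrophils in the mean of both libraries, at 1.25 and 0.917, although macrophages were lower in the library labelled F/F. *Hsph1* was likewise highest in mast cells (1.86 and 2.47) and lowest in neutrophils (0.488 and 0.336), with epithelial cells next to lowest in the mean (0.832 and 0.662). Both the highest and the lowest group of *Hsph1* were separate from their neighbours. T cells, with 1.74 and 1.76, came after mast cells for this gene.

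*Hspa8*, which serves folding in unstressed cells, spanned a narrower range, 2.31-fold between mast cells (15.4 and 13.7) and neutrophils (7.11 and 5.48). In 9 of 10 neighbours the ranges overlapped, and epithelial cells were in the middle of the order, with 11.6 and 8.16. *Hsp90ab1* spanned 2.48-fold, from dendritic cells (16.8 and 15.1) to neutrophils (7.12 and 5.78). Epithelial cells, with 15.1 and 11.6, held the fifth place for *Hsp90ab1*. *Hsp90aa1*, the inducible form, was highest in mast cells, at 9.85 and 11.1, with no overlap with T cells, at 7.37 and 7.04. Its levels were 4.87 and 4.20 in epithelial cells. Erythroid cells (4.28 and 2.96) and neutrophils (3.64 and 3.86) were the lowest, the former in the library labelled ΔMye and the latter in the library labelled F/F.

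*Hspa5*, the chaperone of the ER, was on average highest in macrophages, at 7.88 and 7.90, and lowest in neutrophils, at 3.48 and 4.37. All 10 neighbours overlapped, so no step in its order exceeded the difference between the libraries. In B cells the libraries were far apart, at 5.70 and 8.82. The mitochondrial pair did not share 1 order. *Hspe1* was highest in dendritic cells (4.29 and 3.40) and lowest in neutrophils (1.20 and 0.860), whereas *Hspd1* was highest in erythroid cells (2.63 and 1.84) and in the mean lowest in basophils (1.12 and 0.419). Without these small groups, *Hspd1* lay between 0.713 and 1.73 in every cell type and library. Its erythroid values rest on 46 UMIs in 106 cells and 18 UMIs in 30 cells. With UMIs summed over cells they were 1.86 and 1.33. These were below epithelial cells in the library labelled F/F (1.87) and below mast cells in the library labelled ΔMye (1.45). Neutrophils had the lowest sum of all 10 members, 26.9 and 24.1 per 10000, and mast cells the highest, 63.6 and 65.0.

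**Figure D1:**
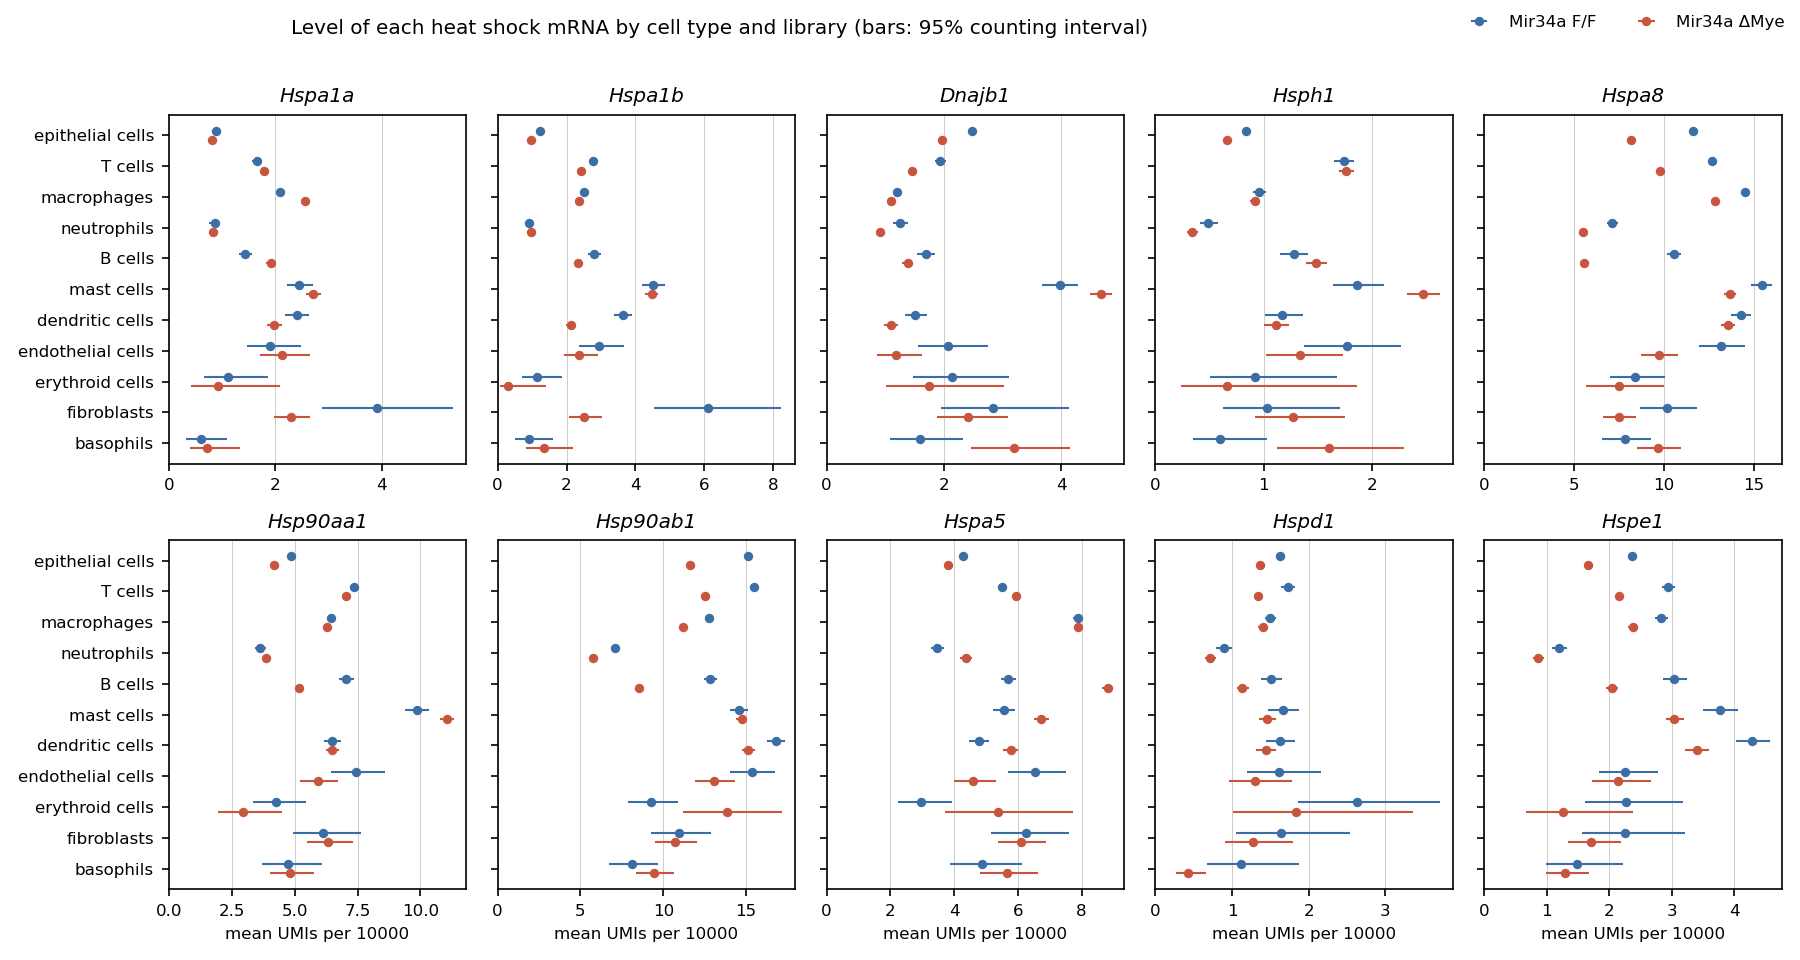
Each panel gives 1 gene, with the mean UMIs per 10000 on the x axis, the cell types on the y axis, points for both libraries and bars for the 95% counting interval. Mast cells have the highest points for Dnajb1 (3.97 and 4.68) and Hsp90aa1 (9.85 and 11.1), neutrophils the lowest for Hspa8 (7.11 and 5.48), and the small groups at the bottom have the widest bars.

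The mean of a cell type can hide a few cells with much mRNA. To compare this at equal depth, each cell was thinned to 1000 UMIs at random, which left out 627 and 160 of the epithelial cells as too shallow. At full depth 29.0% and 29.1% of epithelial cells had a UMI of *Hspa1a*, and after thinning 7.55% (exact binomial interval 7.07 to 8.06) and 6.98% (6.48 to 7.50). No cell type lacks these mRNAs, so a share from free RNA could not be set beside these values. The ratio of variance to mean (Fano factor), which is 1 when cells differ only by counting, was 1.38 and 1.26 for *Hspa1a* in epithelial cells, 3.12 and 2.65 in macrophages, 2.79 and 2.79 in T cells and 2.52 and 2.89 in mast cells. By this measure *Hspa1a* was more uneven in each of these immune cell types than in epithelial cells, in both libraries. The Fano factor can rise with the mean, however. The mean was 0.089 and 0.080 thinned UMIs in epithelial cells and 0.17 to 0.29 in these immune cell types. In neutrophils, with means of 0.098 and 0.084, the factor was 3.44 and 3.14, with at most 11 and 9 UMIs in a cell. *Hspa1b* was similar in macrophages, at 3.93 and 2.94, and in epithelial cells, at 1.28 and 1.18. Its value of 8.24 in neutrophils of the library labelled ΔMye came with 1 cell that had 25 of its 1000 UMIs from this gene. *Hspa5* was at 1.16 in epithelial cells of each library and at 1.41 and 1.35 in macrophages. Its means were 0.42 and 0.38 thinned UMIs in the former and 0.77 and 0.78 in the latter.

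In thinned cells, the neighbours *Hspa1a* and *Hspa1b* were detected together. In macrophages with a UMI of *Hspa1a*, 44.7% (38.2 to 51.3) and 47.1% (41.8 to 52.5) had a UMI of *Hspa1b*, compared with 9.86% (8.57 to 11.3) and 8.67% (7.54 to 9.91) of those without. In mast cells these were 56.0% and 61.1% with, and 13.4% and 10.1% without. In epithelial cells the shares were closer, 22.9% and 18.8% with, and 9.13% and 7.40% without, yet the intervals did not overlap there either.

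*Hsph1* and *Dnajb1*, which are elsewhere in the genome, were also more often found with *Hspa1a*. The intervals with and without *Hspa1a* were separate for *Hsph1* in epithelial cells, macrophages, T cells and mast cells of both libraries. In mast cells, *Dnajb1* was detected in 50.5% and 57.5% of cells with *Hspa1a* and in 16.8% and 17.0% without, and *Hsph1* in 25.3% and 46.0% with and 11.4% and 8.36% without. In epithelial cells *Dnajb1* differed less, 24.7% compared with 18.8% in the library labelled F/F, and 17.3% (14.5 to 20.3) compared with 15.3% (14.6 to 16.1) in the library labelled ΔMye, where the intervals overlapped. In macrophages *Dnajb1* was at 15.3% with and 10.1% without in the library labelled F/F, where the intervals overlapped, and at 16.8% and 9.25% in the library labelled ΔMye, where they were separate. *Hspa5* was found at overlapping shares with and without *Hspa1a* in macrophages (47.7% and 47.6% in the library labelled F/F, 52.0% and 49.0% in the library labelled ΔMye) and in T cells (40.8% and 40.4%, and 40.7% and 41.4%). In epithelial cells of the library labelled ΔMye its shares differed, with an interval of 31.4% to 38.7% with and of 28.4% to 30.2% without *Hspa1a*. The constitutive *Hspa8* was also more often found with *Hspa1a*, with separate intervals in epithelial cells and T cells of both libraries. In macrophages and mast cells its intervals were separate only under the label ΔMye. Those of *Hspd1* were separate in macrophages (19.9% and 10.8%), T cells (23.2% and 10.3%) and mast cells (22.1% and 9.40%) under that label. They overlapped in the other groups. The pair *Hspd1* and *Hspe1*, which shares the element shown above, was also more often found together in epithelial cells. There, 27.0% (24.8 to 29.4) and 21.1% (18.7 to 23.6) of cells with *Hspd1* had *Hspe1*, compared with 17.2% (16.5 to 18.0) and 13.8% (13.1 to 14.5) without. In macrophages of the library labelled F/F the intervals of this pair overlapped, at 25.5% and 22.2%. Such a difference was not limited to pairs that share a stretch. *Hsp90ab1*, on another chromosome than *Hsp90aa1*, was found in 76.8% and 67.8% of epithelial cells with *Hsp90aa1* and in 63.4% and 56.4% of those without. Cells of 1 library share its preparation, and these shares are descriptions of 2 libraries.

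**Figure D2:**
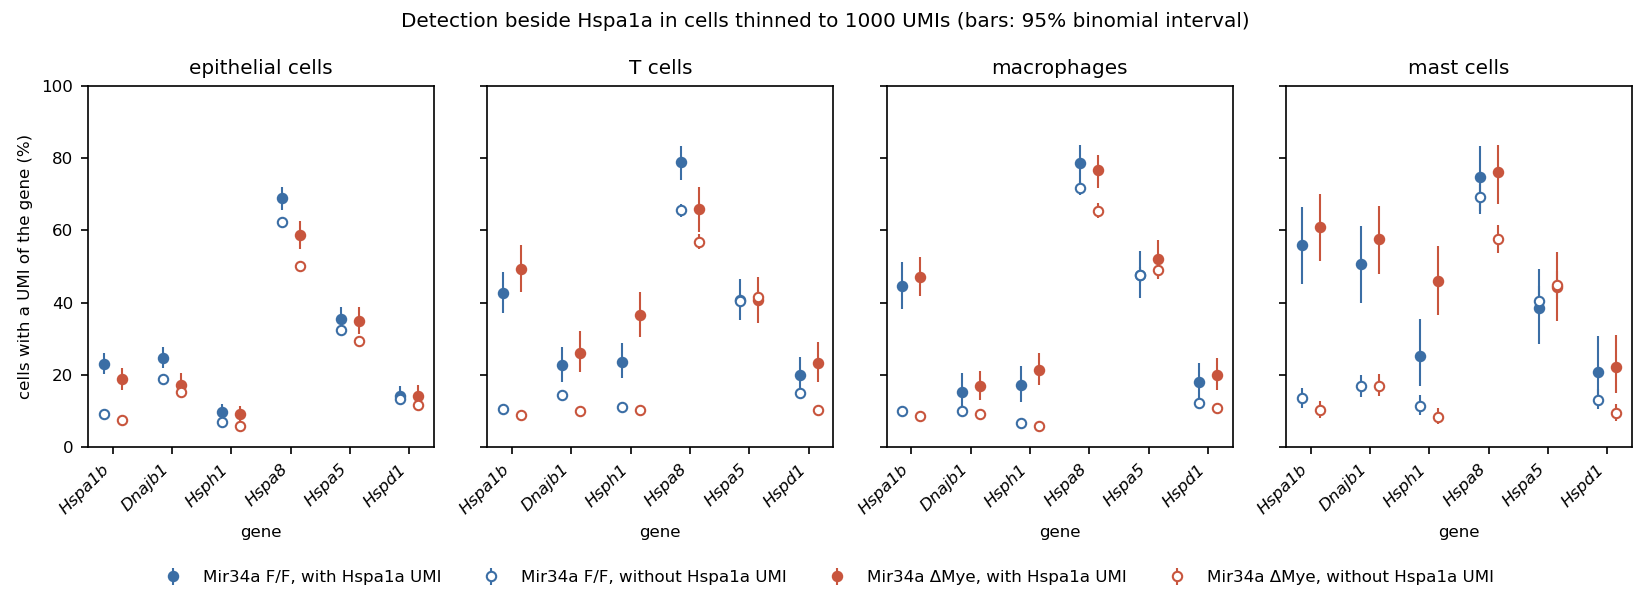
The y axis gives the percentage of cells, thinned to 1000 UMIs, with a UMI of the gene on the x axis, in cells with (filled) or without (open) a UMI of Hspa1a, with 95% binomial intervals, in 4 cell types. Filled points are far above open ones for Hspa1b in macrophages (44.7% and 47.1% compared with 9.86% and 8.67%), whereas those of Hspa5 overlap there (47.7% and 52.0% compared with 47.6% and 49.0%).

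Over the 22 means of cell types and libraries, the genes most like the sum of *Hspa1a*, *Hspa1b*, *Dnajb1* and *Hsph1*, the members left out, were *Rpl22l1* (r = 0.86), *Cyb5a* (r = 0.82), *Selenof* (r = 0.81), *Ext1* (r = 0.80) and *Cox16* (r = 0.79), of 2818 genes ranked. These 22 points share 2 libraries and their depth. Across epithelial cells of 5000 to 15000 UMIs, 4069 and 4086 in number, the list was instead made of immediate-early transcription factors, which cells switch on within minutes of a stimulus. These were *Jun* (r = 0.37 and 0.46), *Atf3* (0.36 and 0.46), *Egr1* (0.35 and 0.42), *Junb* (0.32 and 0.42) and *Fosb* (0.35 and 0.39). The correlations are across cells of the same library, which are not independent replicates. Mitochondrial UMIs are part of the total of each cell here too, and their part in the correlations was not tested.

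To compare the genotypes, the log2 ratio of the level in the library labelled ΔMye over that in the library labelled F/F was computed, and a ratio of at least 0.5 in size was counted as a difference. In epithelial cells all 10 members were below 0, from -0.14 (-0.21 to -0.06) for *Hspa1a* to -0.51 (-0.56 to -0.46) for *Hspe1*, but with cells under 25% mitochondrial UMIs *Hspa1a* was at 0.04, and with a denominator without mitochondrial, immunoglobulin and ribosomal RNA-like genes *Hspa1a*, *Hsp90aa1*, *Hspa5* and *Hspd1* were between 0.03 and 0.12. *Hspe1* (2.36 and 1.66) and *Hspa8* (11.6 and 8.16, log2 ratio -0.51) were the 2 members counted as lower and none was higher, while 8.57% of 9322 genes tested were lower and 1.89% higher. Both calls were lost per nuclear UMIs (-0.39 and -0.39), in cells under 25% mitochondrial UMIs (-0.30 and -0.33), without mitochondrial, immunoglobulin and ribosomal RNA-like genes in the denominator, in cells of at least 500 genes and under 10% mitochondrial UMIs and with a pseudocount of 1. In contrast, 6 members were counted as lower when UMIs were summed over cells, and 3 in cells of at least 2000 UMIs. No share of all genes is given here for these alternatives. The 8.57% and 1.89% apply only to levels averaged over all cells per 10000 of all UMIs. The median of all genes was itself at -0.22. Relative to it, 7 members were below and 3, *Hspa1a*, *Hsp90aa1* and *Hspa5*, above. This split of 7 and 3 was also found under the nuclear denominator and under the denominator without mitochondrial, immunoglobulin and ribosomal RNA-like genes, where the median of all genes was -0.10 and 0.04, whereas in cells under 25% mitochondrial UMIs it was 6 and 4. The members' median was -0.33. Other markers moved with the library in these cells. In epithelial cells under 25%, the summed epithelial markers were at 90.3 and 67.9 per 10000, those of B cells at 1.95 and 8.96, of mast cells at 5.65 and 10.6 and of macrophages at 1.63 and 2.90, and their part in the ratios was not tested.

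In the macrophages, in which LysM-Cre acts, no member reached 0.5 in either direction, with 5.95% of all genes lower and 2.65% higher. *Hspa1a* was at 2.09 and 2.56, a log2 ratio of 0.29 (0.22 to 0.36), and *Hspe1* at 2.84 and 2.38, a ratio of -0.25 (-0.32 to -0.18). The members' median of -0.09 was near that of all genes, -0.06. With UMIs summed over the macrophages, however, *Hspa1a* was past 0.5, at 0.70 (0.65 to 0.75), and *Hspa1b* turned from -0.09 to 0.34 (0.29 to 0.39). In neutrophils, the other target of LysM-Cre, 1 member was lower, *Hsph1*, which had 0.488 and 0.336 (log2 ratio -0.54, -0.86 to -0.21), where 18.8% of genes were lower. With UMIs summed over the neutrophils 4 members were lower, *Hsph1* (-0.65), *Hsp90ab1* (-0.50), *Hspd1* (-0.61) and *Hspe1* (-0.77). No share of all genes is given here for summed UMIs, and the 18.8% is for averaged levels. *Hspa5* was at 3.48 and 4.37 in neutrophils, a ratio of 0.33 (0.23 to 0.43).

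B cells had the largest differences among cell types of more than 500 cells per library. *Hspa8* was at 10.6 and 5.55, a log2 ratio of -0.93, *Hsp90ab1* at 12.8 and 8.55 (-0.59) and *Hspe1* at 3.05 and 2.04 (-0.58). These were 3 of 10 members lower, while 34.3% of all genes were. Without mitochondrial, immunoglobulin and ribosomal RNA-like genes in the denominator, the median of all genes moved from -0.34 to -0.02, and *Hspa8*, *Hsp90ab1* and *Hspe1* were at -0.58, -0.25 and -0.31. *Hspa5* was higher, at 5.70 and 8.82, with a ratio of 0.63 (0.56 to 0.70), where 5.38% of genes were higher. With that other denominator *Hspa5* was at 0.95 (0.89 to 1.01) and *Hspa1a* at 0.54 (0.40 to 0.67). In B cells 1 member was then lower and 2 were higher. The share of all genes lower or higher with that denominator is not given here, so these counts have no background. The 34.3% and 5.38% apply only to levels per all UMIs. Of 18 other ER chaperones and genes of the unfolded protein response, 10 were higher in B cells and 1 was lower, with a median of 0.60, compared with -0.34 for all genes. *Xbp1*, a transcription factor of this response and of plasma cells, had the largest of these ratios (3.47 and 6.87, ratio 0.98), and *Ddit3*, a stress-induced factor, was the one that was lower (0.670 and 0.371, ratio -0.85).

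The libraries differed in the make-up of the B cells. Cells with at least 10% of UMIs from immunoglobulin genes were 29.6% of B cells in the library labelled F/F and 59.6% in the library labelled ΔMye (279 and 552 cells). Below 10%, *Hspa5* was at 4.75 and 4.89, a ratio of 0.04 (-0.09 to 0.18). At or above 10%, it was at 7.98 and 11.5, a ratio of 0.53 (0.46 to 0.59). *Hspa5* was thus higher in the cells with more immunoglobulin in both libraries, and the interval of its library ratio included 0 in the other cells. The median depth was 2980 and 6978 UMIs below 10% and 15565 and 33252.5 UMIs at or above it. The library ratio of *Hspa1a* changed sign, with 1.45 and 3.08 (ratio 1.09, 0.89 to 1.28) below 10% and 1.39 and 1.13 (ratio -0.30, -0.49 to -0.11) above. In the library labelled F/F its level was similar in both classes (1.29 to 1.63 and 1.24 to 1.57). The ratios of *Hspa1b* (0.36 and -0.81) and *Hsph1* (0.81 and -0.31) changed sign as well, and those of the other members did not. *Hspa8* was below 0 in both classes, at -0.73 and -0.51. This split was chosen after seeing the data, and what part the make-up has in the ratios over all B cells was not tested.

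Over all 110 pairs of member and cell type, 16 were lower by at least 0.5 and 6 higher, with a background of 22.7% lower and 12.6% higher among all pairs of gene and cell type. In T cells no member passed 0.5, where 12.8% of genes were lower and 2.9% higher, but *Hspe1* was at -0.53 (-0.59 to -0.47) with UMIs summed over cells. In neutrophils and mast cells none was higher, with 8.02% and 6.07% of genes higher, and in mast cells none was lower, with 21.3% lower. Dendritic cells had 1 member lower and none higher (10.7% and 8.48% of genes), endothelial cells 2 and none (32.2% and 17.6%), fibroblasts 2 and none (34.3% and 24.4%), erythroid cells 4 and 2 (33.3% and 36.9%) and basophils 1 and 3 (36.5% and 24.9%). Below 0 were 78 pairs (58 to 78 under the alternatives), and the share of all pairs of gene and cell type below 0 is not given here. The median of all genes was itself below 0 in most cell types, from -0.34 in B cells to -0.06 in macrophages. It was not in dendritic cells (0.004) and erythroid cells (0.07). *Hspe1* and *Hspd1* were below 0 in 11 of 11 cell types, although *Hspe1* was so in 9 when UMIs were summed over cells, and *Hspd1* in 9 with the denominator without mitochondrial, immunoglobulin and ribosomal RNA-like genes. The ratios of *Hspe1* ran from -0.85 (-1.89 to 0.19) in erythroid cells to -0.07 (-0.51 to 0.37) in endothelial cells, with the interval below 0 in 7. *Hspa8* was below 0 in 10 cell types, in 9 of them with the whole interval, but in 8 with the latter denominator. *Hspa5* took the other direction in 8 cell types (7 in cells of at least 2000 UMIs), with the interval above 0 in 6, and was below 0 in epithelial cells, endothelial cells and fibroblasts. The percentile of a member is the percentage of tested genes with a lower ratio in that cell type. It ran from 14.8 in basophils to 44.3 in mast cells for *Hspd1*. For *Hspe1* it ran from 8.09 in epithelial cells to 56.6 in endothelial cells.

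In mast cells, 3 of the inducible members were at higher levels in the library labelled ΔMye, with intervals above 0. There *Hsph1* had a ratio of 0.41 (0.21 to 0.61), *Dnajb1* of 0.24 (0.11 to 0.36) and *Hsp90aa1* of 0.17 (0.09 to 0.25), none of which reached 0.5, although *Hsph1* did with summed UMIs (0.57, 0.42 to 0.72). The intervals of the inducible *Hspa1a*, at 0.15 (-0.02 to 0.31), and *Hspa1b*, at -0.01 (-0.13 to 0.11), included 0. With summed UMIs, however, they were at 0.48 (0.35 to 0.61) and 0.23 (0.13 to 0.33). Whether these members differed from the other inducible ones thus depends on how cells were weighted. *Hspa5*, the chaperone of the ER, was also higher, at 0.28 (0.18 to 0.38). *Hspa8* was at -0.18 (-0.24 to -0.11) and *Hspe1* at -0.31 (-0.44 to -0.18). The median of all genes in mast cells was -0.13. In dendritic cells *Hspa1b* was at 3.63 and 2.13, a ratio of -0.77 (-0.91 to -0.63), whereas *Hspa1a* was at 2.40 and 1.98, a ratio of -0.28 (-0.45 to -0.11). The fibroblasts had lower *Hspa1a* (-0.77) and *Hspa1b* (6.11 and 2.51, ratio -1.28, -1.79 to -0.77) as well. With UMIs summed over the fibroblasts, however, these ratios were 0.56 and 0.12, so that the direction depends on how cells of unequal depth were weighted. In the erythroid cells and basophils, with at most 106 cells per library, *Hspa5* was at 2.97 and 5.36 in the former and *Hsph1* at 0.595 and 1.60 in the latter. The log2 ratios of 0.85 and 1.43 fell below 0.5 with summed UMIs, to 0.39 (-0.13 to 0.91) and 0.28 (-0.57 to 1.13). The summed mast cell markers in basophils were at 44.1 and 181 per 10000 in the libraries labelled F/F and ΔMye, and their part in the ratios of basophils was not tested.

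**Figure D3:**
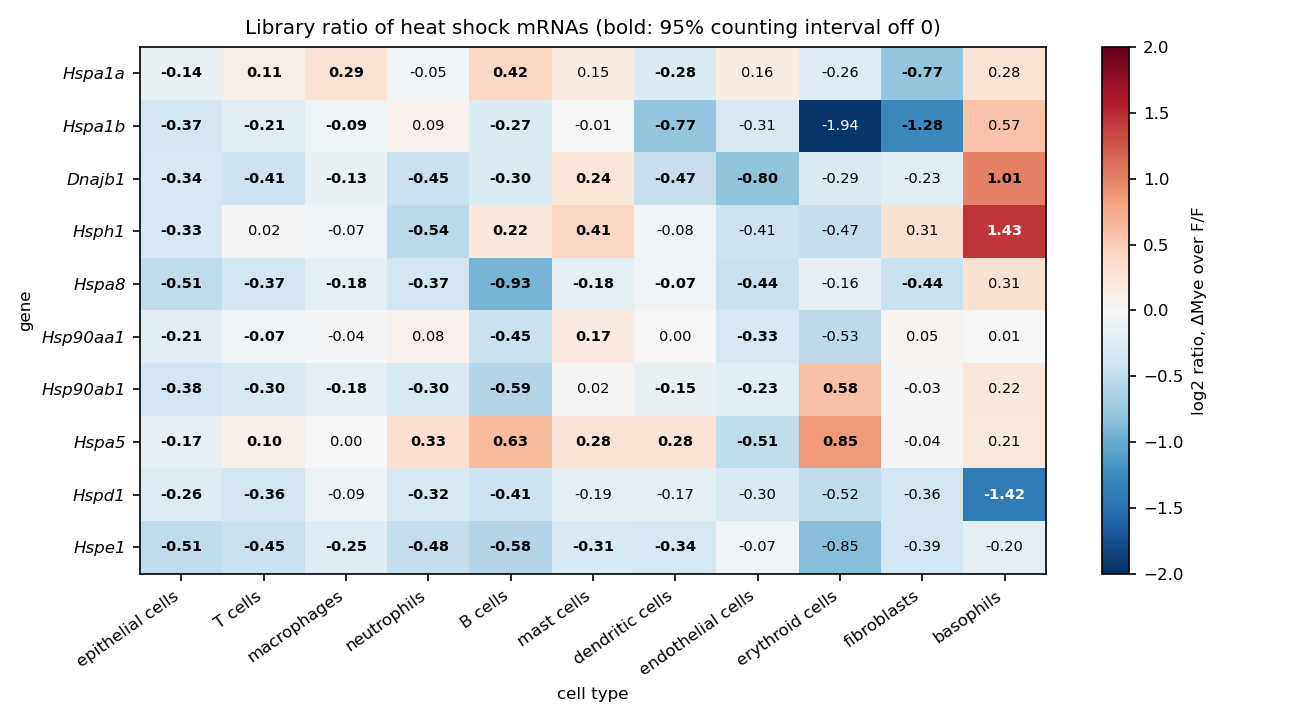
Each field gives the log2 ratio of the level in the library labelled ΔMye over that in the library labelled F/F for a gene (y axis) and cell type (x axis), coloured by its value, and in bold where the 95% counting interval does not include 0. The rows of Hspd1 and Hspe1 hold only values below 0, the column of epithelial cells runs from -0.14 to -0.51, and the largest values are in the small groups at the right.

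Other chaperones in epithelial cells were set beside the members, with the background of 8.57% of all genes lower and 1.89% higher. Of 17 HSF1-linked chaperones and co-chaperones over the minimum of 0.1 UMIs per 10000, 3 were lower and none higher, with *Hspb1*, a small heat shock protein, at the lower end (1.58 and 0.834, ratio -0.92) and *Ier5*, an activator of HSF1, at the upper end (0.811 and 1.05, ratio 0.37). Of 10 constitutive co-chaperones none passed 0.5, from *Ptges3*, the Hsp90 co-chaperone p23 (-0.38), to *Dnaja2*, an Hsp40 (-0.17). The 8 subunits of the cytosolic chaperonin TRiC ran from *Cct7* (-0.38) to *Cct4* (-0.05), again with none past 0.5. Of 18 ER genes 3 were lower, and they ran from the disulfide isomerases *P4hb* (-0.56) to *Pdia3* (-0.12). Of 7 mitochondrial chaperones and proteases 1 was lower, the protease *Lonp1* (-0.53), and the mitochondrial Hsp70 *Hspa9* was highest (-0.07). Of 14 immediate-early genes 3 were lower, from *Ier3* (-0.55) to *Btg2* (0.15). The medians of these lists lay between -0.22 and -0.28, close to that of all genes.

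The stated filter of the study keeps cells under 25% mitochondrial UMIs, whereas the table also holds cells at or above 25%, most of them epithelial. To see how the heat shock mRNAs behave in these, epithelial cells at or above 25% were compared with those below, in each library. They were 2328 of 11614 epithelial cells in the library labelled F/F and 3825 of 9865 in the library labelled ΔMye. In the former their median depth was 2562 UMIs, compared with 6431 below 25%, and in the latter 6713 compared with 6571. The summed epithelial markers were lower in cells at or above 25% in both libraries, at 57.2 compared with 90.3 and at 43.2 compared with 67.9 per 10000 of all UMIs. This total includes the mitochondrial UMIs, with median shares of 38.6% compared with 7.90% and of 41.8% compared with 7.24%. Marker levels per nuclear UMIs are not given here.

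Per 10000 of all UMIs, every member was lower at or above 25%. In the library labelled F/F, 8 of 10 passed 0.5, where 69.9% of all genes did, and in the library labelled ΔMye 10 of 10, where 87.5% of all genes did. The medians of the members, -0.66 and -0.85, were near those of all genes, -0.63 and -0.75. Since mitochondrial UMIs are part of this total, a larger share of them lowers the level of every other gene by construction.

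Among the inducible members, *Hspa1a* had 0.961 below and 0.638 at or above 25% in the library labelled F/F (log2 ratio -0.59, -0.75 to -0.43), and 0.988 and 0.541 in the library labelled ΔMye (-0.87, -0.98 to -0.76). *Dnajb1* fell least, from 2.62 to 1.91 (-0.46) and from 2.24 to 1.52 (-0.57). *Hsp90ab1* had the lowest ratio in the library labelled F/F, from 16.8 to 8.72 (-0.94, -0.98 to -0.90), and was next to lowest in the library labelled ΔMye, from 14.4 to 7.19 (-1.03 to -0.97). *Hspe1* had the lowest there, from 2.09 to 0.987 (-1.08).

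When levels were taken per 10000 of nuclear UMIs, that is without the 13 mitochondrial genes, 0 of 10 members passed 0.5 in either direction in either library. Of all genes, 3.73% were then lower and 5.61% higher in the library labelled F/F, and 3.46% lower and 0.736% higher in the library labelled ΔMye. The medians of the members were -0.01 and -0.16, compared with -0.03 and -0.08 for all genes. *Hsp90ab1* was the member that stayed below 0 by most in the library labelled F/F, from 18.3 to 14.7 (-0.32, -0.36 to -0.27), and it was at -0.30 (-0.33 to -0.27) in the library labelled ΔMye. *Hspe1* was at -0.31 (-0.40 to -0.23) in the library labelled ΔMye but at -0.09 (-0.20 to 0.02) in the other. *Hspa5*, *Hspa8*, *Hspa1b* and *Dnajb1* were above 0 in the library labelled F/F, at 0.06 to 0.15 with intervals that did not include 0, and *Hspa5* was at -0.02 (-0.07 to 0.04) in the library labelled ΔMye. The inducible *Hsp90aa1* was at -0.15 and -0.08, the latter equal to the median of all genes. In cells of 2000 to 10000 UMIs, a window chosen after seeing the data, *Hsp90ab1* was still below 0 (-0.13, -0.18 to -0.09, and -0.33, -0.37 to -0.29). *Hsp90aa1* was then at 0.10 (0.04 to 0.16) in the library labelled ΔMye, and its interval included 0 in the other. *Hspa5* was above 0 in both libraries in this window, at 0.18 (0.10 to 0.27) and 0.29 (0.22 to 0.36), and *Hspe1* was at 0.13 (0.00015 to 0.26) in the library labelled F/F and at -0.18 (-0.29 to -0.08) in the other. The intervals of *Hspa8*, *Hspa1b* and *Dnajb1* in the library labelled F/F then included 0.

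**Figure D4:**
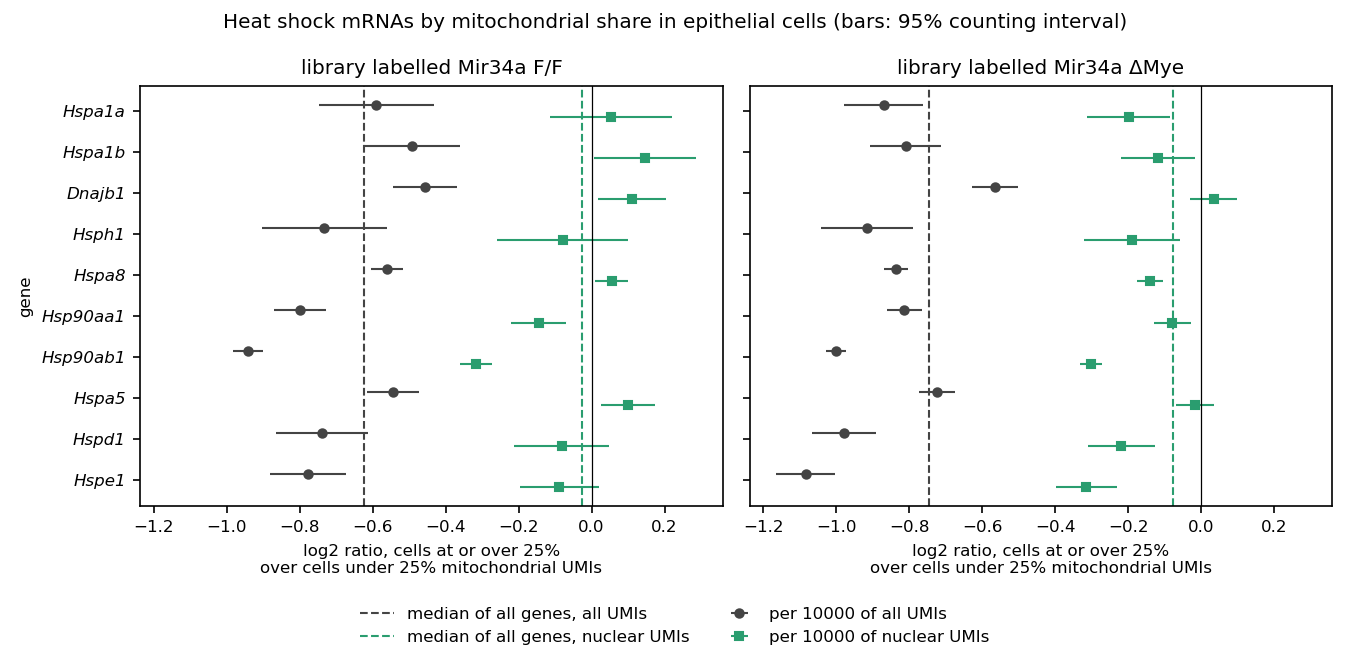
The x axis gives the log2 ratio of epithelial cells at or over 25% mitochondrial UMIs over those under 25%, for each gene on the y axis, per 10000 of all UMIs (circles) or of nuclear UMIs (squares), with 95% counting intervals, and dashed lines mark the medians of all genes. The circles have medians of -0.66 and -0.85, with dashed lines at -0.63 and -0.75, and the squares have medians of -0.01 and -0.16. Hsp90ab1 is left of the dashed line in both panels and on both scales.

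Over 5 classes of mitochondrial share the change was gradual on the first scale. *Hsp90ab1* per 10000 of all UMIs was 21.6, 16.6, 12.5, 9.56 and 7.73 in the classes under 5%, 5 to 10%, 10 to 25%, 25 to 40% and at or over 40% of the library labelled F/F, and 18.7, 14.6, 10.8, 8.34 and 6.20 in the library labelled ΔMye. Per nuclear UMIs, most of its fall was below 25%. It was 22.2, 17.9, 14.9, 14.0 and 15.5 in the library labelled F/F, and 19.3, 15.6, 13.1, 12.2 and 13.4 in the library labelled ΔMye. *Hspa5* per nuclear UMIs was lowest in the middle classes and higher at both ends. It had 5.65, 4.99, 4.46, 4.62 and 6.27 in the library labelled F/F and 5.32, 5.46, 4.41, 4.46 and 5.33 in the library labelled ΔMye. *Hspa8* had the same form in the library labelled F/F (14.6, 13.2, 12.9, 13.3 and 15.2), and *Hspa1a* had no clear order, with 1.10, 0.977, 1.06, 0.946 and 1.28, and 1.09, 1.19, 1.05, 0.963 and 0.953. Depth moved along the classes too. The medians were 7377, 7818, 5852.5, 3828.5 and 1969.5 UMIs in the library labelled F/F. In the library labelled ΔMye they were 2293, 3378, 11748, 10392 and 4651, so that the middle classes, in which *Hspa5* was lowest, were the deepest there. The part of depth in these values was not tested.

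**Figure D5:**
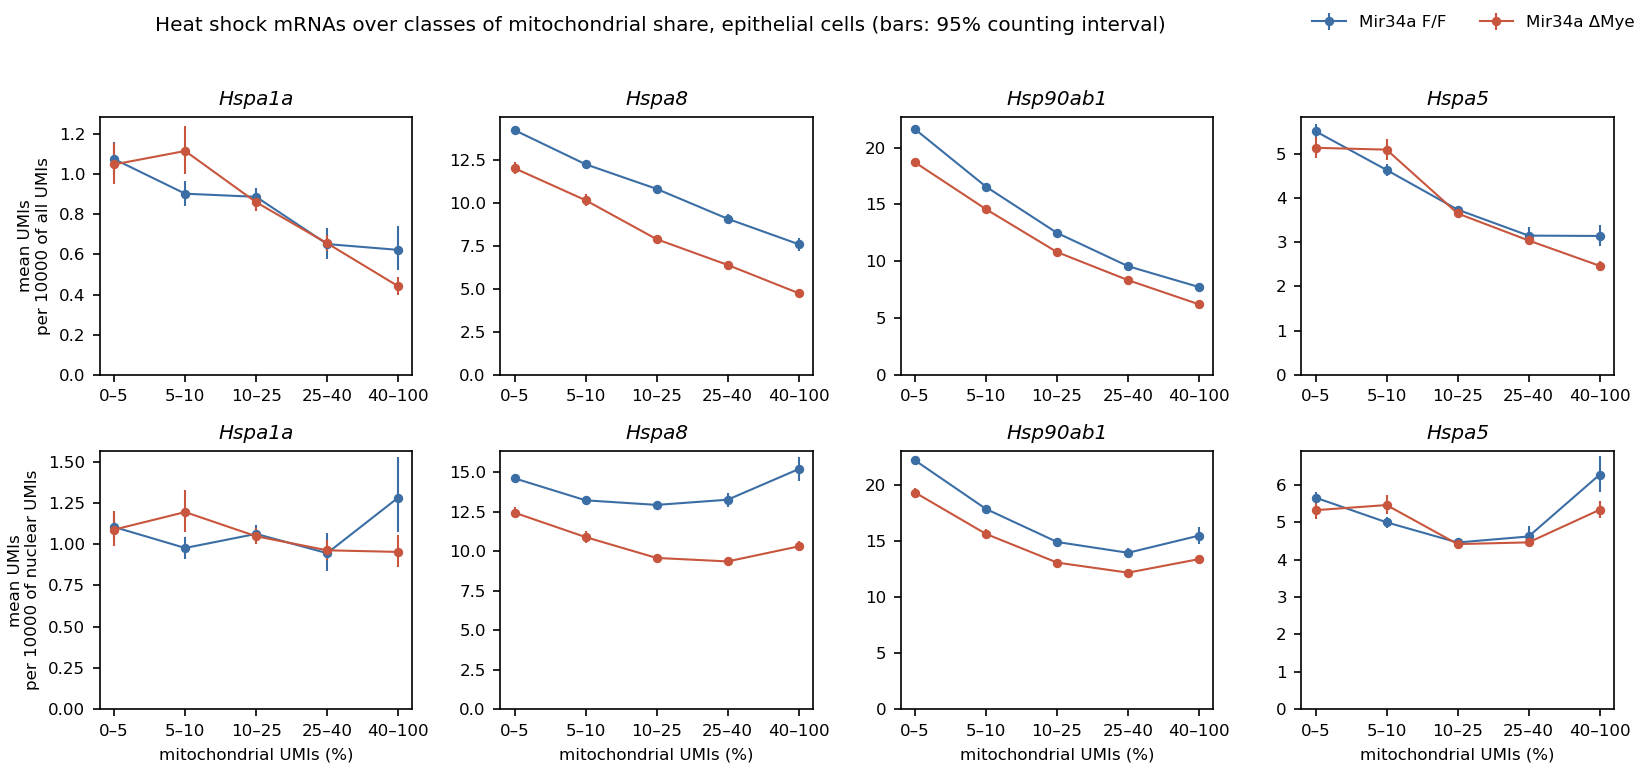
The mean level of 4 genes (y axis, UMIs per 10000 of all UMIs in the upper row and of nuclear UMIs in the lower) is plotted over 5 classes of mitochondrial share in epithelial cells (x axis), with 95% counting intervals, for both libraries. In the upper row all lines end below their start, with a first step up for Hspa1a in the library labelled ΔMye (1.05 to 1.12), whereas in the lower row Hsp90ab1 falls from 22.2 and 19.3 to 14.0 and 12.2 at 25 to 40% and Hspa5 is lowest in the middle.

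The other lists were read against the same background, 69.9% of all genes lower in the library labelled F/F and 87.5% in the library labelled ΔMye. Per 10000 of all UMIs in the library labelled F/F, 13 of 17 HSF1-linked genes, 9 of 10 constitutive co-chaperones, 8 of 8 TRiC subunits, 14 of 18 ER genes, 5 of 7 mitochondrial chaperones and proteases and 9 of 14 immediate-early genes were lower. In the library labelled ΔMye, every gene of these lists over the minimum was lower. The ends of each list were, in the library labelled F/F, *Dedd2* (-0.29) and *Ahsa1* (-1.16), *Stub1* (-0.26) and *St13* (-0.91), *Cct7* (-0.53) and *Cct2* (-0.90), *Xbp1* (-0.39) and *Pdia4* (-0.89), *Lonp1* (-0.37) and *Grpel1* (-0.92), and *Dusp1* (-0.28) and *Atf3* (-0.96). In the library labelled ΔMye they were *Dedd2* (-0.52) and *Ahsa1* (-1.32), *Stub1* (-0.54) and *Ptges3* (-1.05), *Cct8* (-0.79) and *Cct2* (-1.10), *Ddit3* (-0.66) and *Pdia4* (-1.09), *Lonp1* (-0.63) and *Grpel1* (-1.04), and *Ier2* (-0.54) and *Nr4a1* (-0.89). Per nuclear UMIs, *Ahsa1*, which stimulates the ATPase of Hsp90, was the only gene of these lists that was lower by 0.5, at -0.57 and -0.67, and none was higher. Of all genes, 3.73% were lower and 5.61% higher on that scale in the library labelled F/F, and 3.46% and 0.736% in the library labelled ΔMye.

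Few cells of other types were at or above 25%, and those types with at least 50 such cells in a library were added after seeing the data. These were 51 and 71 T cells of the libraries labelled F/F and ΔMye, and 90 macrophages and 53 neutrophils of the library labelled ΔMye. Per 10000 of all UMIs, 10 of 10 members were below 0 in each, and 9, 8, 5 and 6 passed 0.5, where 47.3%, 53.4%, 57% and 42.6% of genes did. Per nuclear UMIs, 3, 1, 2 and 3 members were lower, where 21.7%, 16.1%, 19.9% and 14.8% of genes were. A single member was higher, *Hspd1* in macrophages at 0.59 (0.22 to 0.96), while 32.6%, 26.9%, 26.7% and 36% of genes were higher. *Hspa1a* was among those lower in each, at -0.50 (-0.92 to -0.09) in T cells, -0.69 (-1.11 to -0.27) in macrophages and -0.62 (-1.19 to -0.04) in neutrophils of the library labelled ΔMye, with an interval of -1.91 to -0.09 in T cells of the library labelled F/F. *Hspa1b* was lower in macrophages (-0.87, -1.34 to -0.40) and neutrophils (-0.77, -1.42 to -0.13), and *Hsph1* in T cells of the library labelled F/F (-1.65, -2.74 to -0.56). *Hspd1* was lower in these T cells (-0.61, -1.40 to 0.18) and in neutrophils (-0.60, -1.35 to 0.14), with intervals that included 0.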

How the data were processed

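Single-cell RNA sequencing (10x Genomics 3′ v3.1) had been performed on 1 pool of 3 mice per genotype. Per the submitters' processing notes and the study's methods, reads were aligned with Cell Ranger 7.2.0 to mm10, doublets were removed with Scrublet, and cells under 25% mitochondrial RNA were kept. The authors deposited natural log values, that is ln(1 + UMIs scaled to 10000 in each cell), and a cell type for each of 38883 cells. The table nevertheless holds 2470 and 4130 cells at or over 25%.

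The logarithm was undone and each cell's smallest step taken as 1 UMI, which gave whole UMIs for all 96847573 values above 0 (largest deviation 1.5e-10). Groups were the annotated cell types in each library. A level is the scaled UMIs of a gene averaged over cells, and ratios carry a 95% interval from a Poisson model of the UMIs, weighted by depth. PCR copies were collapsed by UMIs, and the intervals of levels and ratios cover counting error only. Those of shares of cells are exact binomial intervals over the cells of a library. With 1 library per genotype no p-value was computed, and cells were not replicates. A log2 ratio of at least 0.5 in size was counted as a difference in place of a test, with percentages taken over all genes that reached 0.1 UMIs per 10000 in either group.

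Named were all 10 members, the genes at the upper and lower end of 6 further lists in epithelial cells, and, by each measure of likeness, the 5 genes most like the sum of *Hspa1a*, *Hspa1b*, *Dnajb1* and *Hsph1*. *Xbp1* and *Ddit3* in B cells were named after their values were seen. The members and lists were chosen with earlier results of these data known. Alternatives were sums over cells, denominators without 13 mitochondrial or without 403 mitochondrial, immunoglobulin and ribosomal RNA-like genes, filters on depth, detected genes and mitochondrial share, and a pseudocount of 1. Scripts were tested on simulated data and run with numpy 2.4.6, scipy 1.17.1 and matplotlib 3.10.9 under Python 3.11.15. Promoter windows were matched by symbol, and gene coordinates are from GENCODE M21.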

Additional observations from a re-analysis of the deposited data

Results flagged for a closer look

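Some members differed between the libraries in opposite directions in different cell types, each by at least 0.5 on the log2 scale (library labelled ΔMye over library labelled F/F). The difference between the cell types was not tested, and most of these values come from groups of at most 116 cells per library. *Dnajb1* was at 1.01 in basophils and -0.80 in endothelial cells. *Hsph1* was at 1.43 in basophils and -0.54 in neutrophils. *Hsp90ab1* was at 0.58 in erythroid cells and -0.59 in B cells. *Hspa5* was at 0.63 in B cells and 0.85 in erythroid cells, compared with -0.51 in endothelial cells. The mast cell markers in basophils were at 44.1 and 181 UMIs per 10000 in the libraries labelled F/F and ΔMye. With UMIs summed over cells, 5 of these 9 values were below 0.5 in size. *Dnajb1* was then at 0.49 and *Hsph1* at 0.28 in basophils, *Hsp90ab1* at 0.25 and *Hspa5* at 0.39 in erythroid cells and *Hspa5* at -0.30 in endothelial cells.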

How the results depend on the processing

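No paired analysis was possible because there was 1 library per genotype. Of the 110 library ratios, 107 kept their sign per nuclear UMIs, 90 without mitochondrial, immunoglobulin and ribosomal RNA-like genes, 105 in cells under 25% mitochondrial UMIs, 101 in cells of at least 500 genes and under 10%, 110 with a pseudocount of 1, 99 in cells of at least 2000 UMIs and 88 when UMIs were summed over cells, where 89 kept their side of 0.5. With sums, *Hspa1a* and *Hspa1b* turned to 0.56 and 0.12 in fibroblasts and *Hspa1b* to -0.59 in basophils. In cells of at least 2000 UMIs, *Hspd1* turned to 0.14 in erythroid cells. Lower by at least 0.5 were 8 pairs without mitochondrial, immunoglobulin and ribosomal RNA-like genes and 8 with a pseudocount of 1, compared with 16, while there were 21 with sums, 11 per nuclear UMIs and 12 to 15 in the filtered sets of cells. The share of all pairs of gene and cell type past 0.5 is not given here for these alternatives. For cells at or over 25% mitochondrial UMIs, all 20 ratios kept their sign at thresholds of 20% and 30%, with sums, in cells of 2000 to 10000 UMIs, with immunoglobulin under 1% and with a pseudocount of 1. Per nuclear UMIs, 14 of 20 kept their sign. *Hspa1a* (0.054), *Hspa8* (0.055), *Hspa5* (0.10), *Hspa1b* (0.15) and *Dnajb1* (0.11) turned in the library labelled F/F and *Dnajb1* (0.034) in the library labelled ΔMye, and 0 members were lower by 0.5 in either library, compared with 8 and 10. With both nuclear UMIs and 2000 to 10000 UMIs, chosen after seeing the data, 0 were lower in either library. Here 11 of 20 kept their sign. *Hspa8* (0.037), *Hspa5* (0.18), *Hspe1* (0.13) and *Hspa1b* (0.0016) were above 0 in the library labelled F/F, and *Hspa1a* (0.00918), *Hspa1b* (0.019), *Hsph1* (0.021), *Hsp90aa1* (0.10) and *Hspa5* (0.29) in the library labelled ΔMye. With a pseudocount of 1, 4 and 6 members were lower, which follows from its construction, as it shrinks ratios of low genes. Without the minimum of 0.1, 9302 of 25702 genes (36.2%) differed by 0.5 between libraries in epithelial cells, compared with 975 of 9322 (10.5%). With mitochondrial share, 14299 of 21269 (67.2%) did in the library labelled F/F, compared with 6610 of 9437 (70%). In the library labelled ΔMye 19026 of 23569 (80.7%) did, compared with 8140 of 9304 (87.5%). Other causes were not tested.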
